A study of Mus musculus with 24 samples.

Results

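Hippocampal RNA from rTg4510 mice that had received the Nanoligomer cocktail (rTg4510-Nano) was compared with that of littermate (LM) control mice, and the difference was described across all genes. The comparison used 8 of the 24 columns of the deposited counts, the rTg4510-Nano libraries F1, F2, M2 and M3 and the LM libraries F2, F3, M1 and M2, where the letter is the sex. Of 24411 genes, 15179 had a mean normalized count of at least 10 over these 8 libraries and were tested. All 8 were poly(A)-selected libraries of whole hippocampus from C57/B6 mice aged 3 months, 2 of each sex per group. The rTg4510-Nano mice carried the rTg4510 genotype and were treated for a month, and the LM mice were labelled as littermate controls, although the genotype tag of these libraries also reads rTg4510. The titles and treatment tags were followed for the LM group, and which transgenes these littermates carry, or whether they were injected with a vehicle, was not given in the sources used here. The groups therefore differ in both genotype and treatment, and the parts of genotype and treatment in any difference cannot be told apart. Untreated rTg4510 mice (3 distinct libraries, since 2 columns of that group are identical) are given beside some values, and because they were set against the same LM libraries these values are not independent of the main comparison. The labels do not say that each library is a separate mouse, so the p-values measure the spread between these libraries.

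The rTg4510 line carries human mutant tau behind a tetracycline operator, in a vector built from the mouse prion protein gene, and a tetracycline transactivator that the Camk2a promoter drives in excitatory neurons of the forebrain. Tau accumulates in these neurons, which are lost with age, and microglia and astrocytes around them become reactive. Activated microglia are known to raise lysosomal proteases, complement, antigen presentation and interferon-stimulated genes, while losing genes of the resting state such as P2ry12. Nanoligomers are peptide nucleic acid molecules, here directed against NF-κB, a family of transcription factors that switch on cytokine genes, and NLRP3, the sensor of an inflammasome that activates caspase-1.

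Total counts were 19660389 to 26014106 in the rTg4510-Nano libraries and 17214974 to 26310360 in the LM libraries, and log2 CPM (counts scaled to a common library size of 1e6) correlated between pairs of the 8 libraries with r of 0.913 to 0.988 across genes, which are not independent replicates. Several libraries held markers of tissue next to the hippocampus. The summed level of 23 hypothalamus markers reached 510 CPM in rTg4510-Nano M2, and the lowest library of that group was at 11.98 CPM, against 11.0 to 55.5 CPM in LM mice. Oxt, the oxytocin precursor, had 2, 8, 1273 and 9 counts in the rTg4510-Nano libraries F1, F2, M2 and M3, and Pmch, the melanin-concentrating hormone precursor, had 0, 0, 1108 and 7. In the same library the mean log2 CPM of 15 CA pyramidal cell markers was 4.08, against 5.40 to 6.16 in the other rTg4510-Nano libraries and 5.62 to 6.37 in LM mice. Pituitary markers were highest in rTg4510-Nano M3 (3.08 on the same scale) and LM M1 (1.72), and thalamus and habenula markers were highest in rTg4510-Nano M2 (5.36) and LM M1 (5.37). The summed level of 24 choroid plexus markers was low on both sides, 192 to 407 CPM in rTg4510-Nano and 170 to 610 CPM in LM mice, where the 3 untreated rTg4510 libraries were at 7089 to 28818 CPM. The part of choroid plexus in the untreated rTg4510 values given below was not tested. Values without rTg4510-Nano M2 are given beside several results. All 23 hypothalamus markers had a count above 0 in rTg4510-Nano M2, and 1 to 7 were at 0 in the other rTg4510-Nano libraries and 3 to 9 in LM libraries. All 15 pituitary markers had a count above 0 in rTg4510-Nano M3 and LM M1. Below, levels are in CPM, and where only values are given they stand in the order F1, F2, M2 and M3 for rTg4510-Nano, set against F2, F3, M1 and M2 for LM.

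**Figure D1:**
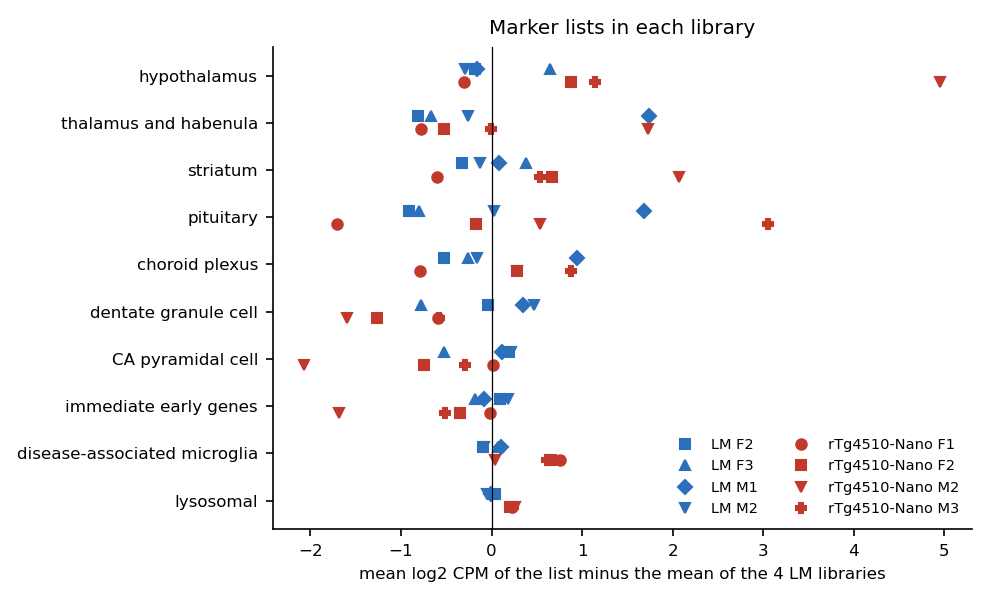
Mean log2 CPM of 10 gene lists in each of the 8 libraries, as the difference from the mean of the 4 LM libraries, with LM in blue and rTg4510-Nano in red and 1 symbol per replicate. rTg4510-Nano M2 stands apart for hypothalamus, striatum, CA pyramidal cell and immediate early genes, and the 4 rTg4510-Nano libraries lie close together and above LM for the lysosomal list.

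Across all genes, few differences passed the test. No gene was higher in rTg4510-Nano than in LM mice (0%, 0 of 15179) and 4 genes fell (0.0264%) at an adjusted p under 0.05 in edgeR's quasi-likelihood test with Benjamini-Hochberg adjustment over all genes. At an unadjusted p under 0.05, 611 genes were higher (4.03%) and 599 lower (3.95%). In 361 genes every rTg4510-Nano library was above every LM library (2.38%), and in 391 every one was below (2.58%). DESeq2, the tool named in the submitters' processing notes, called 20 genes higher (0.132%) and 35 lower (0.231%) in the same table, including all 4 of the edgeR calls. The median log2 fold change of all genes was 0.01. The 4 calls were lost, with 0 genes called, when any 1 of the 7 libraries other than rTg4510-Nano M2 was left out (623 to 1911 genes at an unadjusted p under 0.05), and without rTg4510-Nano M2 the test called 8 genes, the same 4 lower and 4 higher. No gene was called (0) by 2 other fits, limma-voom (1126 genes at an unadjusted p under 0.05) and edgeR with sex as a covariate (1380). The difference between the groups was also compared between females and males, where 0 of 15179 genes passed edgeR's test of the interaction and 667 had an unadjusted p under 0.05.

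The 4 genes that fell were Esyt2, Gabrd, Ptprn2 and Ier5l, and Esyt2 and Ptprn2 lie in the same stretch of chromosome 12. Esyt2 (GRCm38 chromosome 12, 116281196 to 116391050), which encodes a protein that tethers the endoplasmic reticulum to the plasma membrane, was at 30.2, 28.0, 25.2 and 34.7 CPM in rTg4510-Nano F1, F2, M2 and M3. It was at 63.4, 55.7, 56.7 and 57.8 CPM in LM F2, F3, M1 and M2. The lowest LM library was thus above the highest rTg4510-Nano library, and rTg4510-Nano mice had 0.506 times the LM level (log2 fold change -0.98, SE 0.11, adjusted p = 0.0434). Ptprn2 (chromosome 12, 116485720 to 117276849), a phosphatase-like protein of dense-core vesicles, was at 244, 285, 266 and 267 CPM in the rTg4510-Nano and 451, 468, 422 and 446 CPM in the LM libraries (log2 fold change -0.75, SE 0.08, adjusted p = 0.0434). Both groups were narrow and far apart for both genes.

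Gabrd (chromosome 4, 155384980 to 155398112) encodes the delta subunit of extrasynaptic GABA-A receptors, which carry tonic inhibition in dentate granule cells. Its levels were 11.7, 12.8, 9.75 and 10.2 CPM in the rTg4510-Nano and 25.7, 22.9, 28.8 and 34.0 CPM in the LM libraries, or 0.400 times the LM level (log2 fold change -1.32, SE 0.15, adjusted p = 0.0434). Ier5l (chromosome 2, 30471537 to 30474219), an immediate early response gene, was at 9.51, 9.47, 7.73 and 8.84 CPM in the rTg4510-Nano and 18.3, 17.4, 16.6 and 20.9 CPM in the LM libraries (log2 fold change -1.04, SE 0.12, adjusted p = 0.0434). The 8 values of each of these genes also separated without overlap. The untreated rTg4510 libraries F1, F3 and M2 were also below every LM library, at 19.8, 12.3 and 14.3 CPM of Gabrd and 12.2, 11.3 and 12.002 CPM of Ier5l. Set against LM mice they gave log2 fold changes of -0.86 for Gabrd and -0.65 for Ier5l, neither past the threshold (adjusted p = 0.103 and 0.0547).

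The other genes of this stretch of chromosome 12 were then read in order. In the rTg4510 line the transactivator transgene is known to have disrupted a segment of chromosome 12 that holds Vipr2, Wdr60, Esyt2, Ncapg2 and the start of Ptprn2, and the tau transgene to have disrupted Fgf14 on chromosome 14. Wdr60 (chromosome 12, 116206262 to 116263022), a dynein intermediate chain of cilia, was at 10.8, 13.7, 13.8 and 12.8 CPM in the rTg4510-Nano and 23.04, 25.4, 20.3 and 19.1 CPM in the LM libraries (log2 fold change -0.78, SE 0.13, adjusted p = 0.259). Ncapg2 (chromosome 12, 116405402 to 116463731), a condensin subunit, was at 2.21 to 3.17 against 4.66 to 5.63 CPM (log2 fold change -0.90, SE 0.17, adjusted p = 0.572). Neither passed edgeR's threshold, and DESeq2 called both (adjusted p = 0.000125 and 0.00383). Vipr2, a receptor for vasoactive intestinal peptide (chromosome 12, 116077726 to 116146261), went the other way, from 1.36, 1.82, 2.33 and 0.601 CPM in LM to 3.12, 3.41, 5.11 and 6.27 CPM in rTg4510-Nano libraries, with no overlap (log2 fold change 1.54, SE 0.41, adjusted p = 0.613). The flanking Zfp386 and D430020J02Rik, an RNA within the segment, were named after their values were seen. Zfp386 had a log2 fold change of 0.10 and D430020J02Rik one of 0.10 (SE 0.26). Fgf14, a modulator of sodium channels (chromosome 14, 123977907 to 124677127), was at 21.4, 27.9, 31.2 and 23.6 CPM in the rTg4510-Nano and 25.5, 33.1, 31.1 and 26.7 CPM in the LM libraries, so that the groups overlapped (log2 fold change -0.16, SE 0.14, adjusted p = 0.705). Untreated rTg4510 mice had 20.4, 15.9 and 17.6 CPM of Fgf14, a log2 fold change of -0.71 from LM and 0.54 for rTg4510-Nano minus rTg4510. Esyt2 was at 31.7, 28.8 and 30.8 CPM in untreated rTg4510 mice, within the range of the rTg4510-Nano libraries, and Vipr2 at 5.76, 4.25 and 4.63 CPM. Of the 6 genes of the insertion regions, 4 were lower and 1 higher at an unadjusted p under 0.05, beside 3.95% and 4.03% of all genes.

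**Figure D2:**
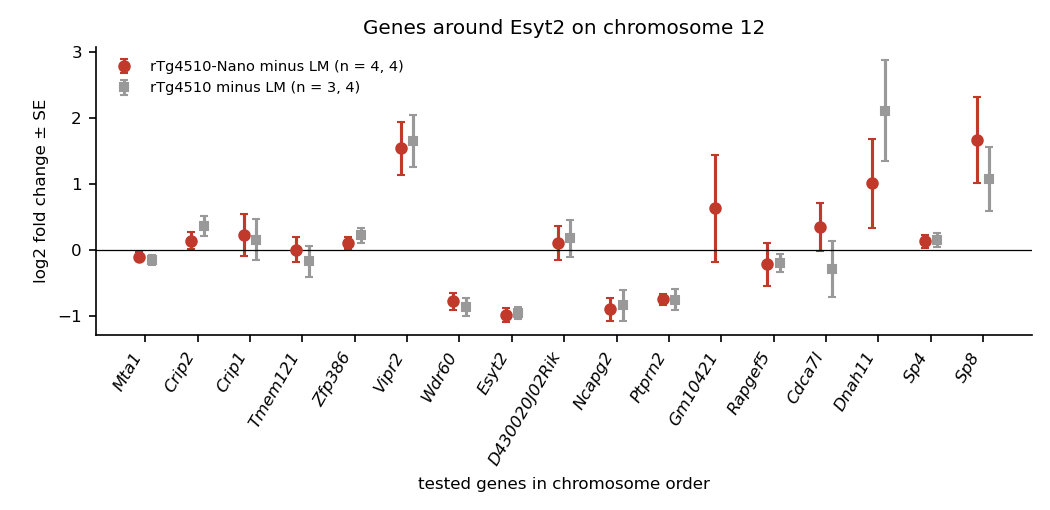
Log2 fold change (± SE) of 17 tested genes around Esyt2, in chromosome order, for rTg4510-Nano minus LM (red) and untreated rTg4510 minus LM (grey), which share the LM libraries. Wdr60, Esyt2, Ncapg2 and Ptprn2 lie between -0.98 and -0.75 for rTg4510-Nano and Vipr2 lies at 1.54, while Zfp386 on one side is near 0.

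Among the genes of the transgenes themselves, Prnp, the prion protein gene whose noncoding sequence the tau transgene carries (chromosome 2, 131909928 to 131938429), had the clearest excess. It was at 4054, 2840, 1149 and 2448 CPM in the rTg4510-Nano and 963, 894, 895 and 952 CPM in the LM libraries (log2 fold change 1.502, SE 0.32, adjusted p = 0.613), and reads of the endogenous gene and of the transgene cannot be told apart in these counts. The 4 LM libraries agree closely, whereas rTg4510-Nano M2, the library with hypothalamus markers, was nearest to them. DESeq2 called Prnp (adjusted p = 0.00125), and edgeR did so without rTg4510-Nano M2, where the log2 fold change was 1.75 (adjusted p = 0.0333). Untreated rTg4510 mice had 3065, 2267 and 3300 CPM of Prnp. Mapt, the mouse tau gene (chromosome 11, 104231390 to 104332090), was at 650, 632, 664 and 606 CPM in the rTg4510-Nano and 540, 538, 562 and 558 CPM in the LM libraries (log2 fold change 0.22, SE 0.08, adjusted p = 0.613), with no overlap, and whether human tau reads were counted under Mapt was not tested. Camk2a, whose promoter drives the transactivator, was at 6471, 3921, 963 and 4599 CPM in the rTg4510-Nano and 6862, 4888, 5541 and 7040 CPM in the LM libraries, with rTg4510-Nano M2 far below the other 7 (log2 fold change -0.61, SE 0.47, adjusted p = 0.677).

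Of the higher genes with a mean count of at least 50, the smallest p belonged to Slc35f1, a member of the nucleotide sugar transporter family (chromosome 10, 52690533 to 53111622). It was at 123, 108, 79.9 and 112 CPM in the rTg4510-Nano and 50.8, 63.4, 40.5 and 45.8 CPM in the LM libraries, or 2.11 times the LM level (log2 fold change 1.08, SE 0.17, adjusted p = 0.259), and untreated rTg4510 mice had 87.1, 92.0 and 106 CPM. DESeq2 called it (adjusted p = 9.8e-06), and so did edgeR where rTg4510-Nano M2 was left out, at a log2 fold change of 1.19 (adjusted p = 0.0408). Pde4b, a phosphodiesterase that degrades cyclic AMP, was at 95.5, 112, 118 and 114 against 73.9, 82.1, 74.9 and 66.1 CPM (log2 fold change 0.57, SE 0.10, adjusted p = 0.292). Kndc1, a brain guanine nucleotide exchange factor, was at 209, 217, 191 and 212 against 149.8, 162, 149 and 135 CPM (log2 fold change 0.47, SE 0.08, adjusted p = 0.362). Its untreated rTg4510 values, 132, 135 and 153 CPM, lay in or just below the LM range. Slit2, a secreted axon guidance cue, behaved likewise in 2 of the 3 untreated libraries, with 63.2, 77.3, 63.3 and 69.1 CPM in rTg4510-Nano, 37.4, 52.9, 41.9 and 35.4 CPM in LM and 38.5, 66.5 and 40.1 CPM in untreated rTg4510 mice (log2 fold change 0.70, SE 0.14, adjusted p = 0.579). Neither difference between treated and untreated rTg4510 mice passed the threshold, with log2 fold changes of 0.58 for Kndc1 and 0.51 for Slit2 (adjusted p = 0.132 and 0.835). DESeq2 called Pde4b, Kndc1 and Slit2 for rTg4510-Nano minus LM (adjusted p = 0.000302, 1.1e-05 and 0.00398). Adgrg1, an adhesion receptor of neural progenitors and glia (log2 fold change 0.83, SE 0.17), Slc29a3, a lysosomal nucleoside transporter (log2 fold change 0.61, SE 0.14), Plek, a phosphoprotein of myeloid cells (log2 fold change 0.52, SE 0.12), and Serpinb9, an inhibitor of granzyme B (log2 fold change 0.54, SE 0.12), were also higher in all 4 rTg4510-Nano libraries than in any LM library, with adjusted p = 0.613 in edgeR in each case, a value that many genes of this ranking share. The 3 further genes that edgeR called higher without rTg4510-Nano M2 were Prnp, Car4, a membrane carbonic anhydrase (1.68), and Tbr1, a transcription factor of excitatory neurons (1.19 on the log2 scale), and Car4 and Tbr1 were named after their values were seen.

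After the 4 calls, the lower genes with the smallest p were Krt9, Per1, Grem1, C1ql2, Wdr60 and Htr1a, of which Per1 and C1ql2 are described with their lists. Krt9, a keratin, was at 3.396, 5.24, 2.99 and 3.28 CPM in the rTg4510-Nano and 10.02, 10.3, 8.78 and 10.4 CPM in the LM libraries (log2 fold change -1.41, SE 0.20, adjusted p = 0.192). Grem1, a secreted antagonist of bone morphogenetic proteins, was at 0.959, 0.728, 1.29 and 1.04 against 3.82, 2.53, 5.48 and 6.01 CPM (log2 fold change -2.14, SE 0.33, adjusted p = 0.259). Htr1a, the serotonin 1A receptor of hippocampal pyramidal and granule cells, was at 25.8, 22.9, 24.7 and 27.3 against 44.4, 35.7, 45.0 and 57.3 CPM (log2 fold change -0.86, SE 0.14, adjusted p = 0.259). All 3 separated the groups completely, and DESeq2 called each of them (adjusted p = 7.4e-08, 8.4e-06 and 0.000275). Untreated rTg4510 libraries were also low for Htr1a, at 16.6, 23.7 and 25.5 CPM.

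Markers of dentate granule cells, the neurons that receive the cortical input of the hippocampus, were below LM levels throughout the list. All 17 had a negative log2 fold change, with a median of -0.75 beside 0.01 for all genes, although no member passed the adjusted threshold. At an unadjusted p under 0.05, 10 of 17 were lower and none higher, where the share of all genes was 3.95%, and 4 had groups that did not overlap, beside 2.58%. In bulk RNA, fewer cells of a type, less RNA per cell and a smaller share of dentate tissue in the sample cannot be told apart. C1ql2, a synaptic protein of mossy fibre terminals, was at 29.7, 25.1, 29.3 and 24.0 CPM in the rTg4510-Nano and 65.1, 47.3, 99.8 and 98.2 CPM in the LM libraries (log2 fold change -1.52, SE 0.24, adjusted p = 0.259). Every rTg4510-Nano library was below the lowest LM library, and DESeq2 called the gene (adjusted p = 3.4e-06). Untreated rTg4510 mice were lower still, at 9.20, 19.9 and 18.1 CPM, with a log2 fold change of 0.79 for rTg4510-Nano minus rTg4510 (SE 0.26, adjusted p = 0.664). Stxbp6, a regulator of SNARE assembly, was at 52.4, 53.5, 69.9 and 55.6 against 101, 76.8, 157 and 154 CPM (log2 fold change -1.08, SE 0.23, adjusted p = 0.613), and DESeq2 called it (adjusted p = 0.00848). Trpc6, a cation channel, was at 10.4, 10.4, 6.30 and 8.96 against 18.8, 11.1, 25.3 and 33.8 CPM (log2 fold change -1.30, SE 0.33, adjusted p = 0.613), and DESeq2 called it (adjusted p = 0.0331). Plk5, Rfx3 and Npnt had log2 fold changes of -1.004, -0.75 and -1.24. Prox1, the transcription factor that sets granule cell identity, was named after its values were seen: it was at 53.7, 19.7, 31.1 and 44.9 CPM in the rTg4510-Nano and 69.2, 33.2, 119 and 117 CPM in the LM libraries, and the low value of LM F3 made the groups overlap. LM F3 was also the lowest LM library for C1ql2, Stxbp6 and Trpc6. The median of the list was -1.0002 to -0.68 with any 1 library left out, and without rTg4510-Nano M2 it was -0.74 with 5 members lower at an unadjusted p under 0.05, beside 3.8% of all genes in that fit. It was -0.45 in females alone and -1.18 in males alone.

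CA pyramidal cell markers had a median difference (log2 fold change) of -0.63 over 15 genes, of which 2 were lower at an unadjusted p under 0.05, beside 3.95% of all genes. This value depended on single libraries, with -1.004 without rTg4510-Nano F1 and -0.27 without rTg4510-Nano M2. The median was -0.11 in females alone and -1.42 in males alone. Wfs1, the wolframin gene of CA1 neurons, was at 119, 167, 113 and 90.5 CPM in the rTg4510-Nano and 192, 131, 246 and 301 CPM in the LM libraries (log2 fold change -0.83, SE 0.27, adjusted p = 0.613). Fibcd1, a CA1 membrane receptor, was at 117, 90.3, 14.9 and 95.9 against 211, 132, 138 and 170 CPM (log2 fold change -1.04, SE 0.51, adjusted p = 0.613), which left no overlap but placed M2 far below the other treated libraries. Pou3f1, a transcription factor, and Rgs14, a CA2 signalling regulator, had log2 fold changes of -1.63 and -1.21, which were -1.36 and -0.87 without M2. Map3k15 and Nptx1 gave 0.62 and -0.70 (adjusted p = 0.628 and 0.658), and 0.39 and -0.36 without M2. Rbfox3, which encodes the neuronal antigen NeuN, was at 386, 272, 176 and 306 CPM in the rTg4510-Nano and 382, 304, 391.7 and 441 CPM in the LM libraries (log2 fold change -0.41, SE 0.22, adjusted p = 0.615), and without M2 its log2 fold change was -0.24.

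Genes of inhibitory interneurons were mixed, with 11 of 18 log2 fold changes positive and 7 negative and a median of 0.31. At an unadjusted p under 0.05, 5 were higher and 1 lower, beside 4.03% and 3.95% of all genes. Gad1, which makes GABA from glutamate, was at 295, 282, 396 and 321 CPM in the rTg4510-Nano and 217, 250.1, 215 and 201 CPM in the LM libraries (log2 fold change 0.55, SE 0.13, adjusted p = 0.613), and DESeq2 called it (adjusted p = 0.0288). Without M2 its log2 fold change was 0.44. The list median was 0.12 without rTg4510-Nano F2 and 0.59 without LM F3. Gad2 (1.16) and the vesicular GABA transporter gene Slc32a1 (0.97) were highest in rTg4510-Nano M2, at 570 and 256 CPM, and without it their log2 fold changes were 0.62 and 0.52. The hypothalamus and striatum, whose markers M2 held, are rich in GABA neurons, and the part of these cells in the values was not tested. Lhx6, a transcription factor of parvalbumin and somatostatin interneurons, gave 0.48, and Reln, a secreted glycoprotein of interneurons, 0.56 (adjusted p = 0.613 in both). Lamp5, a membrane protein of neurogliaform cells, was below LM in all rTg4510-Nano libraries, by a narrow margin in F1, at 36.5, 34.5, 14.9 and 30.4 CPM against 36.6, 51.2, 48.6 and 42.2 CPM (log2 fold change -0.62, SE 0.26).

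**Figure D3:**
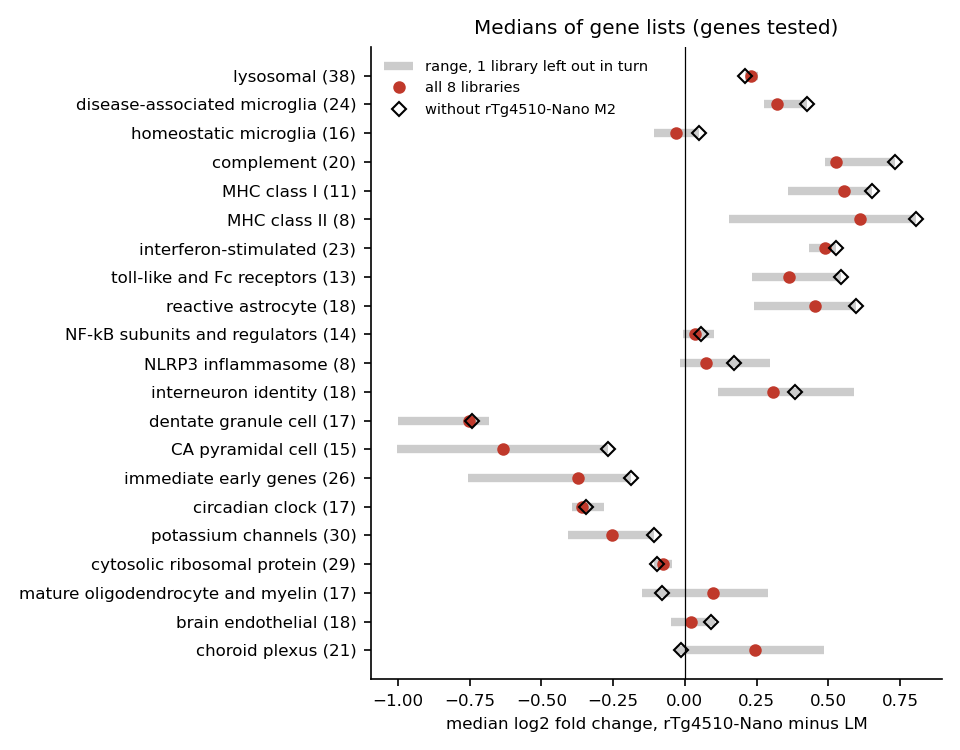
Median log2 fold change (rTg4510-Nano minus LM) of the tested members of 21 gene lists, for all 8 libraries (red), without rTg4510-Nano M2 (open diamonds), and as the range with each library left out in turn (grey bars). The lysosomal, interferon-stimulated, clock and dentate granule cell medians keep their sign in every case, as do those of several other lists. The CA pyramidal cell, immediate early gene and potassium channel medians also keep their sign but move toward 0 without rTg4510-Nano M2.

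Lysosomal genes lay slightly but evenly above LM levels. Of 38 genes of lysosomal enzymes and membrane proteins, 34 had a positive log2 fold change, with a median of 0.23 beside 0.01 for all genes. No member passed the adjusted threshold, 14 were higher and none lower at an unadjusted p under 0.05, beside 4.03% of all genes, and in 11 members every rTg4510-Nano library was above every LM library, beside 2.38%. The summed level of the list was 5102 to 5661 CPM in rTg4510-Nano and 4389 to 4670 CPM in LM mice, and the median was 0.21 to 0.25 with any 1 library left out. Npc2, a cholesterol carrier of the lysosome, was at 58.2, 55.5, 61.5 and 53.6 CPM in the rTg4510-Nano and 46.2, 47.3, 49.9 and 43.6 CPM in the LM libraries (log2 fold change 0.29, SE 0.08, adjusted p = 0.613). Gusb, beta-glucuronidase, was at 18.4, 16.3, 16.8 and 17.4 against 14.1, 14.4, 11.7 and 10.6 CPM (log2 fold change 0.44, SE 0.12). The proteases cathepsin Z (Ctsz, log2 fold change 0.46), legumain (Lgmn, 0.34) and cathepsin D (Ctsd, 0.36) also had no overlap between groups. Cathepsin S (Ctss, 0.57), which microglia express, was above every LM library in all rTg4510-Nano libraries except M2. Ctsd was at 475, 396, 340 and 343 CPM in the rTg4510-Nano and 322, 310, 299 and 279 CPM in the LM libraries. Untreated rTg4510 mice were higher than LM by a median of 0.44 over the same 38 genes, and rTg4510-Nano minus rTg4510 had a median of -0.22. For Ctsd the untreated libraries had 525, 792 and 674 CPM, above all rTg4510-Nano libraries, with a log2 fold change of -0.76 (SE 0.18, adjusted p = 0.346), but the untreated libraries also held choroid plexus, whose epithelium expresses lysosomal genes, and its part was not tested.

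Many lysosomal genes carry the palindrome CACGTG, the core bound by the lysosomal regulator TFEB and, as the E-box, by the clock proteins CLOCK and BMAL1. It was searched on both strands in RefSeq promoters (GRCm38.p6), each 250 bases before to 50 after a transcription start. It was found for 11 of the 30 lysosomal genes (36.7%) and 5 of the 15 clock genes (33.3%) that the promoter table holds (of 38 and 17 in the lists), and for 8.09% of all 27025 genes in it. The promoters of Ctsd and Lgmn, from the lysosomal list, and of Per1, from the clock list, are shown as stretches of 150 bases around a match, 5′ to 3′ on the strand of the gene, with CACGTG in capitals. Ctsd has 2 matches in its 300 bases, of which 1 is in the stretch. Where a gene had several promoters, the first that held a match is shown, here and below. The stretch of Per1 belongs to a transcription start inside the gene. A match is a description of the sequence and not of binding.
Ctsd (chr7:142387928-142388077, minus strand): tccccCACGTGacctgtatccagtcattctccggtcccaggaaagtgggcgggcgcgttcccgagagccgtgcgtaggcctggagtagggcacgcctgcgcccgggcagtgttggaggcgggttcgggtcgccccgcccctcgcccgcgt
Lgmn (chr12:102439064-102439213, minus strand): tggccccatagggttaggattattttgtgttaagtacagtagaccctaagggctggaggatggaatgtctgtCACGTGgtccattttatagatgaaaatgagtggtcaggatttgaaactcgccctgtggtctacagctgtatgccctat
Per1 (chr11:69098711-69098860, plus strand): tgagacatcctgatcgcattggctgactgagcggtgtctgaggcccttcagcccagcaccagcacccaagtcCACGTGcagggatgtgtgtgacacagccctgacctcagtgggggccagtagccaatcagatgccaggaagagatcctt

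Genes that microglia raise around damaged neurons (disease-associated microglia) had a median difference (log2 fold change) of 0.32 over 24 genes, and 11 were higher and none lower at an unadjusted p under 0.05, beside 4.03% and 3.95% of all genes. In 6 the groups did not overlap, beside 2.38% of all genes. Without rTg4510-Nano M2 the median was 0.43, with 13 of the tested members higher at an unadjusted p under 0.05, beside 3.88% of all genes in that fit. Ccl6, a chemokine, was at 2.80, 4.87, 1.84 and 1.94 CPM in the rTg4510-Nano and 0.897, 1.24, 0.873 and 0.962 CPM in the LM libraries (log2 fold change 1.52, SE 0.36, adjusted p = 0.613). Itgax, the integrin CD11c, was at 1.80, 1.502, 0.414 and 0.597 against 0.351, 0.266, 0.388 and 0.120 CPM (log2 fold change 1.89, SE 0.58, adjusted p = 0.613), which rests on 45, 33, 9 and 16 counts against 9, 6, 8 and 2. Itgax thus passed the filter on mean counts only through the rTg4510-Nano libraries. So did Clec7a, named after its values were seen, on 80, 29, 7 and 22 counts against 0, 10, 6 and 1. The counts of higher members above include such genes and are a description only. Lyz2, lysozyme, was at 12.02, 9.61, 5.01 and 12.4 against 4.21, 6.12, 4.75 and 2.65 CPM (log2 fold change 1.13, SE 0.33), and Spp1, osteopontin, at 2.44, 6.74, 12.6 and 8.10 against 1.64, 3.33, 3.93 and 1.62 CPM (log2 fold change 1.501, SE 0.51). Both overlapped between groups. Homeostatic microglia genes had a median of -0.03 over 16 genes, 8 positive and 8 negative (-0.11 without rTg4510-Nano F2 and 0.05 without rTg4510-Nano M2). At an unadjusted p under 0.05, 0 were higher and 1 lower, beside 4.03% and 3.95% of all genes. Without rTg4510-Nano M2, 4 were higher and 1 lower, beside 3.88% and 3.8% of all genes in that fit. Of the negative members, P2ry12, the purinergic receptor of resting microglia, was at 43.3, 43.4, 31.0 and 43.5 CPM in the rTg4510-Nano and 52.4, 46.9, 48.3 and 48.1 CPM in the LM libraries (log2 fold change -0.28, SE 0.12), with M2 lowest. Itgam, the integrin CD11b, had a log2 fold change of -0.24 (SE 0.13). In untreated rTg4510 mice the medians relative to LM were 0.75 and 0.19 for the disease-associated and homeostatic lists.

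Complement genes, whose products tag synapses and debris for removal, had a median difference (log2 fold change) of 0.53 over 20 genes, with 4 higher and 1 lower at an unadjusted p under 0.05, beside 4.03% and 3.95% of all genes. The median was 0.49 to 0.73 with any 1 library left out, lowest without rTg4510-Nano M3 and highest without rTg4510-Nano M2. Without rTg4510-Nano M2, 13 members were higher and 1 lower at an unadjusted p under 0.05, where the shares of all genes in that fit were 3.88% and 3.8%. Members were not counted in this way with other libraries left out. Itgax, which passed the filter on mean counts only through the rTg4510-Nano libraries, is in this list as well. C4b, made by reactive astrocytes and oligodendrocytes, was at 98.2, 44.6, 27.6 and 79.8 CPM in the rTg4510-Nano and 30.3, 18.9, 23.9 and 25.7 CPM in the LM libraries (log2 fold change 1.34, SE 0.37, adjusted p = 0.613). All but M2 were above every LM library, and without M2 the log2 fold change was 1.59 (adjusted p = 0.241). C3ar1, the receptor for C3a, was at 4.51, 3.005, 1.33 and 2.31 against 0.897, 0.709, 0.776 and 2.28 CPM (log2 fold change 1.27, SE 0.50) and C2 had a log2 fold change of 0.88 (SE 0.32). Cfp, properdin, which stabilises the alternative convertase, was lower, at 5.19, 5.60, 3.36 and 3.06 CPM against 8.46, 11.3, 4.998 and 9.62 CPM (log2 fold change -0.998, SE 0.30), with overlap because LM M1 was low.

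All 11 tested genes of MHC class I antigen presentation had a positive log2 fold change, with a median of 0.55, and 6 were higher at an unadjusted p under 0.05, beside 4.03% of all genes. The summed level of the list was 173 to 221 CPM in rTg4510-Nano and 131 to 155 CPM in LM mice, without overlap, and the median was 0.36 without rTg4510-Nano M3 and 0.65 without rTg4510-Nano M2. H2-T23, a nonclassical class I molecule, was at 4.59, 5.14, 5.57 and 6.61 CPM in the rTg4510-Nano and 3.43, 2.75, 2.13 and 2.40 CPM in the LM libraries, or 2.04 times the LM level (log2 fold change 1.03, SE 0.21, adjusted p = 0.613). DESeq2 called it (adjusted p = 0.00568). B2m, the light chain shared by class I molecules, was at 81.2, 84.0, 80.1 and 93.0 against 64.1, 61.8, 79.0 and 74.4 CPM (log2 fold change 0.28, SE 0.10), again with no overlap. The classical heavy chains H2-D1 (0.48) and H2-K1 (0.55) are close paralogs, so reads may have been divided between them, and Tapbp (0.26) and the immunoproteasome subunit Psmb8 (0.62) completed the 6 with the smallest p. The median for untreated rTg4510 minus LM was 0.62 and for rTg4510-Nano minus rTg4510 -0.14. MHC class II genes had a median of 0.61 over 8 genes (0.15 without rTg4510-Nano M3 and 0.81 without rTg4510-Nano M2). Cd74, the invariant chain, was at 2.08, 4.37, 7.54 and 17.4 CPM in the rTg4510-Nano and 1.21, 4.03, 3.20 and 1.80 CPM in the LM libraries (log2 fold change 1.62, SE 0.65, adjusted p = 0.613), highest in M3.

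Interferon-stimulated genes had a median difference (log2 fold change) of 0.49 over 23 genes. No member passed the adjusted threshold, 9 were higher and 1 lower at an unadjusted p under 0.05, and in 7 every rTg4510-Nano library was above every LM library, beside 4.03%, 3.95% and 2.38% of all genes. The median was 0.43 to 0.53 with any 1 library left out, and the summed level was 152 to 169 CPM in rTg4510-Nano and 122 to 140 CPM in LM mice. Oasl2, a member of the oligoadenylate synthetase family, was at 4.39, 5.60, 5.34 and 6.01 CPM in the rTg4510-Nano and 2.65, 2.08, 3.10 and 3.85 CPM in the LM libraries (log2 fold change 0.87, SE 0.22, adjusted p = 0.613). Ifit3b, an antiviral protein with a close paralog in Ifit3, was at 2.84, 3.78, 4.28 and 3.32 against 1.52, 2.31, 2.38 and 1.74 CPM (log2 fold change 0.84, SE 0.23). Untreated rTg4510 mice had 3.89, 4.51 and 2.56 CPM of Oasl2 and 2.33, 3.06 and 2.56 CPM of Ifit3b, and the log2 fold changes of rTg4510-Nano minus rTg4510 were 0.55 and 0.43. Lgals3bp, a secreted galectin-binding glycoprotein, had its highest values in untreated mice: it was at 15.2, 22.8, 24.1 and 19.4 CPM in rTg4510-Nano, 10.4, 14.98, 10.7 and 7.03 CPM in LM and 28.7, 49.3 and 30.4 CPM in untreated rTg4510 mice (log2 fold change 0.92, SE 0.23 for rTg4510-Nano minus LM, and -0.81 for rTg4510-Nano minus rTg4510). Bst2, tetherin, was at 2.92, 3.05, 2.53 and 2.95 CPM in rTg4510-Nano, 2.18, 1.51, 1.46 and 1.74 CPM in LM and 4.77, 11.1 and 7.94 CPM in untreated rTg4510 mice (log2 fold change 0.73, SE 0.22). The untreated libraries, highest for Lgals3bp and Bst2, also held choroid plexus markers at 7089 to 28818 CPM, whose part was not tested. The transcription factor gene Irf7 was above every LM library in all rTg4510-Nano libraries, at 2.16 to 2.99 against 0.781 to 1.79 CPM (log2 fold change 0.99, SE 0.31).

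The interferon response element, to which interferon regulatory factors bind, was searched as GAAANNGAAA (N for any base) on both strands of the same RefSeq promoters. It was present for 11 of the 18 interferon-stimulated genes with a promoter in the table (61.1%, of 26 in the list), 3 of the 12 MHC class I genes (25.0%, of 14) and 3.99% of all genes, and 0 of the 15 clock genes. The 4 promoter stretches shown belong to H2-T23 and B2m from the class I list and to Bst2 and Ifit3b from the interferon list, with matches to either strand in capitals. Bst2 and Ifit3b each have 2 matches, which overlap in Bst2.
H2-T23 (chr17:36032746-36032895, minus strand): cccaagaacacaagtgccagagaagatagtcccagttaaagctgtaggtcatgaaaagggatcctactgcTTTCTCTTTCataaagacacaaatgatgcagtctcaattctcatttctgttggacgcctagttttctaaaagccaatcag
B2m (chr2:122147478-122147627, plus strand): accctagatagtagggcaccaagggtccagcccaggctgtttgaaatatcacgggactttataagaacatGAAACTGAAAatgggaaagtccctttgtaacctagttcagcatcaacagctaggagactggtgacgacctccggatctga
Bst2 (chr8:71537523-71537672, minus strand): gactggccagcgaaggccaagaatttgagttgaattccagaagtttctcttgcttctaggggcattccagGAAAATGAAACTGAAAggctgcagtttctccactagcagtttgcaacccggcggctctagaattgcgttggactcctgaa
Ifit3b (chr19:34607707-34607856, plus strand): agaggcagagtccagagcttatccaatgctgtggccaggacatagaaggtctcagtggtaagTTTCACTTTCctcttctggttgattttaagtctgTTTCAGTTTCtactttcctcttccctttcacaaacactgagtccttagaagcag

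Reactive astrocyte genes had a median difference (log2 fold change) of 0.45 over 18 genes, 3 of them higher at an unadjusted p under 0.05, beside 4.03% of all genes (0.24 without rTg4510-Nano M3 and 0.60 without rTg4510-Nano M2 for the median). Gfap, the intermediate filament of astrocytes, was at 960, 486, 303 and 668 CPM in the rTg4510-Nano and 401, 304, 445 and 445 CPM in the LM libraries, so that 3 rTg4510-Nano libraries were above every LM library and M2 was below all (log2 fold change 0.60, SE 0.32, adjusted p = 0.615). Without M2 its log2 fold change was 0.82 (adjusted p = 0.557). Fbln5, an elastic fibre protein, was at 6.79, 5.19, 13.2 and 13.8 against 4.21, 4.79, 4.46 and 2.71 CPM (log2 fold change 1.26, SE 0.35), without overlap, and Cd44, the hyaluronan receptor, at 4.71, 9.65, 6.67 and 11.9 against 1.75, 6.16, 3.88 and 2.28 CPM (log2 fold change 1.22, SE 0.44). Vim, vimentin, gave 0.52 (SE 0.26), and 0.19 without rTg4510-Nano M3, the library highest in pericyte and smooth muscle markers, whose part was not tested. Aspg gave 0.70 (SE 0.37), and 0.50 without M3. Cd68, a lysosomal protein of phagocytes, was at 13.8, 16.98, 6.67 and 8.69 against 7.84, 9.44, 5.39 and 8.18 CPM (log2 fold change 0.58, SE 0.31, adjusted p = 0.613), and Aif1, which encodes the microglial antigen IBA1, at 6.55, 8.38, 2.67 and 5.15 against 5.58, 8.42, 3.83 and 4.57 CPM (log2 fold change 0.02, SE 0.37, adjusted p = 0.989). For Aif1 no difference was detectable at this spread.

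**Figure D4:**
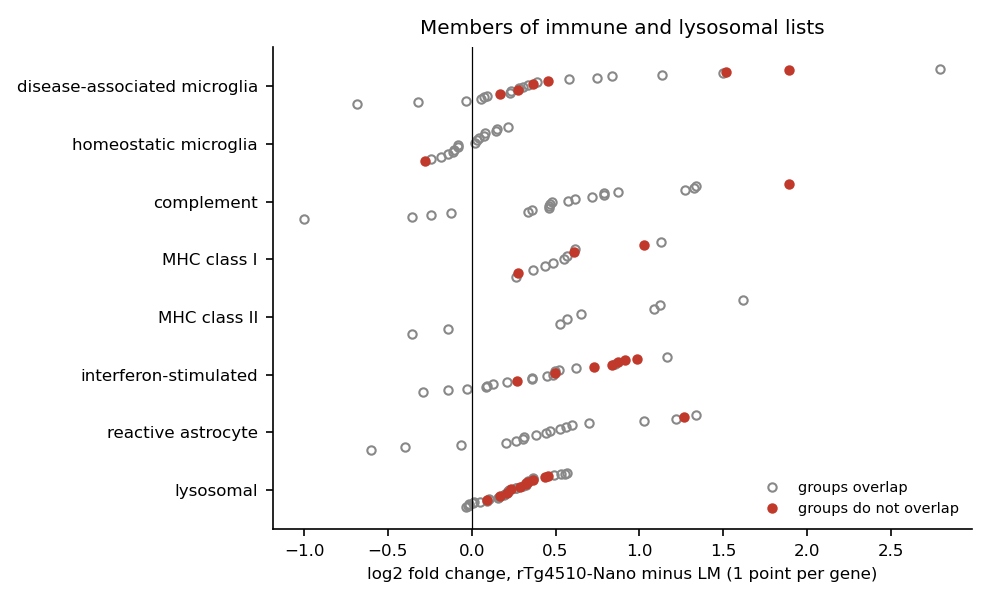
Log2 fold change (rTg4510-Nano minus LM) of each tested member of 8 lists, with 1 point per gene, filled where the rTg4510-Nano and LM libraries do not overlap. Of the lysosomal members 34 of 38 lie above 0, interferon-stimulated and MHC class I members reach about 1, and homeostatic microglia members lie on both sides of 0.

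No difference was detectable in Nfkb1 or Nlrp3, genes of the drug targets. Nfkb1, which encodes the p105 precursor and p50 subunit of NF-κB, was at 21.9, 17.7, 21.7 and 19.8 CPM in the rTg4510-Nano and 19.5, 18.3, 20.2 and 18.3 CPM in the LM libraries (log2 fold change 0.09, SE 0.10, adjusted p = 0.766). Nlrp3 was at 1.68, 1.41, 1.24 and 1.53 against 1.56, 2.66, 1.02 and 0.781 CPM (log2 fold change -0.05, SE 0.39, adjusted p = 0.976), a level where 42, 31, 27 and 41 counts were set against 40, 60, 21 and 13. The LM libraries alone spanned a wide range for Nlrp3, and its standard error was larger than that of Nfkb1. Of 14 NF-κB subunits and regulators, 1 was lower and none higher at an unadjusted p under 0.05, beside 3.95% and 4.03% of all genes. It was Tnfaip3, the feedback inhibitor A20, at 7.43, 6.28, 3.73 and 6.94 against 12.5, 9.27, 6.50 and 9.32 CPM (log2 fold change -0.62, SE 0.26). The list had a median of 0.04 (-0.01 without rTg4510-Nano F1 and 0.10 without rTg4510-Nano F2). Nfkbiz and Nfkb2 gave -0.53 and 0.34. The 8 tested inflammasome genes had a median of 0.07 (-0.02 without rTg4510-Nano F1 and 0.30 without LM F3). None was past an unadjusted p of 0.05, beside 4.03% of all genes higher and 3.95% lower. Txnip, a binding partner of NLRP3, gave 0.41 (SE 0.21), Il1a 1.15 (SE 0.76) and Casp1 0.47 (SE 0.37). Il1a had 46, 21, 4 and 13 counts against 8, 13, 12 and 1, and it passed the filter on mean counts only through the rTg4510-Nano libraries. The 10 tested NF-κB target cytokines and adhesion genes had a median of 0.21, 8 positive and 2 negative (0.08 without rTg4510-Nano M3 and 0.28 without rTg4510-Nano F1). At an unadjusted p under 0.05, 1 was higher and 1 lower, beside 4.03% and 3.95% of all genes. The list's mean log2 CPM was 0.409 to 0.973 in rTg4510-Nano and 0.024 to 0.407 in LM libraries, while its summed levels overlapped. Among these genes the chemokine Ccl3 was higher, on 22, 28, 18 and 29 counts in the rTg4510-Nano and 3, 0, 5 and 0 counts in the LM libraries, and DESeq2 called it (adjusted p = 0.00428, edgeR adjusted p = 0.613). With so few LM counts, Ccl3 passed the filter on mean counts only through the rTg4510-Nano libraries. Its untreated rTg4510 values were 0.305, 0.963 and 1.19 CPM, against 0.879, 1.27, 0.828 and 1.08 CPM in rTg4510-Nano. Cxcl12, a chemokine of endothelium and granule cells, was lower, at 65.0, 68.8, 54.8 and 67.4 against 91.2, 73.5, 92.1 and 99.1 CPM (log2 fold change -0.48, SE 0.11). S100a8, Il17re and Ido1 were below the filter on mean counts and were not tested. Their counts were 7, 5, 3 and 23 (S100a8), 8, 5, 1 and 12 (Il17re) and 0, 9, 13 and 7 (Ido1) in the rTg4510-Nano libraries F1, F2, M2 and M3, and 0, 0, 5 and 0 (S100a8), 0, 17, 9 and 1 (Il17re) and 0, 2, 0 and 7 (Ido1) in the LM libraries. Of 13 tested toll-like and Fc receptor genes, 2 were higher and 0 lower at an unadjusted p under 0.05, beside 4.03% and 3.95% of all genes. Tlr1, a pattern recognition receptor, was at 1.08, 0.956, 0.874 and 0.560 against 0.468, 0.177, 0.146 and 0.481 CPM (log2 fold change 1.44, SE 0.48), and Tlr2 gave 0.85 (SE 0.36). Tlr1 had 27, 21, 19 and 15 counts against 12, 4, 3 and 8, and it also passed the filter only through the rTg4510-Nano libraries.

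Clock genes, which keep daily time in most cells, had a median difference (log2 fold change) of -0.36 over 17 genes, and 7 were lower and none higher at an unadjusted p under 0.05, beside 3.95% of all genes. The summed level was 1183 to 1285 CPM in rTg4510-Nano and 1470 to 1654 CPM in LM mice, and the median was -0.39 to -0.28 with any 1 library left out. Per1, a repressor of the clock (chromosome 11, 69095217 to 69109960) with an E-box shown above at a start inside the gene, was at 62.0, 62.2, 60.6 and 66.3 CPM in the rTg4510-Nano and 94.2, 85.7, 85.8 and 102 CPM in the LM libraries (log2 fold change -0.55, SE 0.08, adjusted p = 0.218), and DESeq2 called it (adjusted p = 7.9e-06). Its rTg4510-Nano values lay within a narrow range below the lowest LM library. Hlf, an output transcription factor, was at 98.6, 125, 133 and 118 against 182, 143, 165 and 198 CPM (log2 fold change -0.53, SE 0.13), also without overlap. Per3 gave -0.64 (SE 0.17), Bhlhe40 -0.59 (SE 0.20), Cry2 -0.21 (SE 0.08) and Nr1d1, the repressor REV-ERBα, -0.38 (SE 0.16). Untreated rTg4510 mice differed from LM by a median of -0.44 for the list, and their Per1 was at 73.8, 65.9 and 46.5 CPM. By the study's methods the mice were fed and killed late in the morning under a reversed light cycle, while the time for each library was not given in the sources used here, and its part was not tested.

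Immediate early genes, the first to be transcribed after neuronal firing, had a median of -0.37 over 26 genes, of which 23 were negative and 5 lower at an unadjusted p under 0.05, beside 3.95% of all genes. The median was -0.76 without rTg4510-Nano F1 and -0.19 without rTg4510-Nano M2, the library low in pyramidal cell markers. In females alone it was -0.14 and in males alone -1.17. Nr4a1, an orphan nuclear receptor, was at 52.6, 40.8, 11.3 and 38.4 CPM in the rTg4510-Nano and 99.9, 63.0, 77.8 and 95.5 CPM in the LM libraries (log2 fold change -1.23, SE 0.40, adjusted p = 0.613). Egr2, Arc, Junb and Egr1 had log2 fold changes of -1.32, -1.45, -0.80 and -0.89, which were -1.05, -1.19, -0.53 and -0.65 without M2. Bdnf, a neurotrophin released with activity, was at 65.3, 35.6, 12.5 and 27.7 CPM in the rTg4510-Nano and 38.8, 32.0, 51.3 and 56.6 CPM in the LM libraries, and the groups overlapped (log2 fold change -0.34, SE 0.44, adjusted p = 0.798), with a log2 fold change of -0.82 without rTg4510-Nano F1 and -0.06 without M2. Potassium channel genes had a median of -0.25 over 30 genes, with 8 lower at an unadjusted p under 0.05, beside 3.95% of all genes. The median was -0.41 without rTg4510-Nano F1, -0.11 without rTg4510-Nano M2, -0.02 in females alone and -0.55 in males alone. Kcnh7 (-1.02), Kcnj9 (-0.54), Kcnd2 (-0.73) and Kcns2 (-0.59) had the smallest p, and each overlapped between the groups.

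Receptor genes other than Gabrd did not pass edgeR's threshold. Of 16 GABA receptor genes the median was -0.09 (-0.13 without rTg4510-Nano F1 and -0.03 without rTg4510-Nano M2). Gabre, a subunit of hypothalamic and brainstem receptors, had 25.9 CPM in rTg4510-Nano M2 and 0.0800, 2.595 and 0.821 CPM in F1, F2 and M3, a log2 fold change of 4.09 that was 1.43 without M2. Gabrb1 and Gabra4 gave 0.25 and -0.36. Among 24 acetylcholine and serotonin receptor genes, 3 were higher and 5 lower at an unadjusted p under 0.05, beside 4.03% and 3.95% of all genes. The lower ones included Htr4 (-0.89) and Chrm3 (-1.01), and the higher ones Chrm5 (1.14) and Chrm2 (1.37). Chrm2 was highest in M2 and gave 0.68 without it. The median of these receptors was -0.16 (-0.23 without LM M2 and 0.13 without LM M1). Glutamate receptor and scaffold genes had a median of -0.19 over 29 genes (-0.32 without rTg4510-Nano F1 and -0.08 without rTg4510-Nano M2). Grm3, an inhibitory receptor of astrocytes and neurons, was at 40.6, 54.1, 50.8 and 49.9 CPM in the rTg4510-Nano and 67.6, 56.0, 58.1 and 67.1 CPM in the LM libraries (log2 fold change -0.35, SE 0.11, adjusted p = 0.613), and Homer2, Grin1 and Grm2 gave -0.68, -0.37 and -0.78. Tau kinases and phosphatases had a median of -0.08 over 22 genes (-0.17 without rTg4510-Nano F1 and -0.01 without rTg4510-Nano M2), and Cdk5r1, the p35 activator of the tau kinase CDK5, was at 241, 230, 174 and 220 against 254, 270, 265 and 277 CPM (log2 fold change -0.30, SE 0.11). Mark2 gave -0.26 and Camk2b -0.70.

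The medians of several lists of other cell types and general functions lay within 0.11 of 0, although single libraries moved the myelin median from -0.15 (without LM F3) to 0.29 (without LM M1). The median was 0.10 for 17 myelin genes, 0.02 for 18 endothelial genes, 0.11 for 15 homeostatic astrocyte genes, -0.01 for 26 respiratory chain genes, 0.06 for 26 chaperone genes and -0.02 for 26 synaptic vesicle genes. Olig1, a transcription factor of the oligodendrocyte lineage, was above every LM library in all rTg4510-Nano libraries, at 141, 143, 164 and 128 against 124, 115, 115 and 122 CPM (log2 fold change 0.28, SE 0.09), and Olig2 gave 0.30 (SE 0.17) and 0.12 without M2. Of 29 cytosolic ribosomal protein genes, 25 were negative with a median of -0.08, and Rps14 (-0.38), Rps2 (-0.30) and Rpl5 (-0.16) had groups that did not overlap, beside 2.58% of all genes, in a family with many pseudogenes. Cholesterol synthesis genes had a median of 0.10 over 19 genes (0.04 without rTg4510-Nano M2 and 0.13 without rTg4510-Nano M3), with 3 higher at an unadjusted p under 0.05, beside 4.03% of all genes, among them Sqle (0.31) and Stard4 (0.35). In 3 lists of vessel wall, meningeal and cilia genes the medians were larger and moved with single libraries, and no member passed an unadjusted p under 0.05. Pericyte and smooth muscle markers had a median of 0.33, with 11 of 12 positive (0.03 without rTg4510-Nano M3 and 0.45 without rTg4510-Nano F1), and their mean log2 CPM was 4.45 in rTg4510-Nano M3 against 3.395, 3.69 and 3.13 in F1, F2 and M2 and 3.19 to 3.49 in LM mice. Collagen and meninges markers had a median of 0.37, with 15 of 21 positive (0.02 without rTg4510-Nano M3 and 0.55 without rTg4510-Nano F1). Motile cilia genes, which ependymal cells use, had a median of 0.67, with 19 of 20 positive (0.31 without rTg4510-Nano M2 and 1.21 without LM M1). The part of these cells in the other results was not tested. Adult neurogenesis genes had a median of -0.01 over 17 genes.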

How the data were processed

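Poly(A)-selected RNA of whole hippocampus was sequenced, and the authors deposited raw counts per gene symbol. Per the labels and the study's methods, fastp was used for trimming and STAR for alignment to the mm10 genome. Tool versions, the counting program and its use of strand were not given in the sources used here, so overlapping and antisense genes cannot be told apart, and 27 gene names had been turned into dates. From these counts, CPM was computed with TMM scaling over the 23 distinct libraries, and rTg4510-Nano (4 libraries) was compared with LM (4 libraries) by edgeR (version 4.0.16, R 4.3.3) quasi-likelihood tests with robust dispersion, for genes whose normalized counts averaged 10 or more, with Benjamini-Hochberg adjustment over all 15179 genes and a threshold of 0.05. The median total was 21523067 counts, and counting error is largest for genes of few counts. Fold changes and SE come from the fit on the 8 libraries. A list's score is the mean log2 CPM of its members (prior count 2). The exact permutation test of a single value could not go below 0.0286 with 4 against 4 and was not used.

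Gene positions are on GRCm38, for the 14587 tested genes matched to 1 position. Promoters are RefSeq's (GRCm38.p6). The genes named were the members of the transgene, insertion region and study-named lists, the 6 members with the smallest p of each list described, and all calls with the 10 genes of smallest p per direction (mean count at least 50), and others are marked as chosen after their values were seen. Some genes that this rule names are not reported here. The comparison and the lists were chosen with earlier results of these data known. Alternatives were DESeq2 (1.42.0) size factors and test, limma-voom (3.58.1), other filters, covariates, sexes and groups in the fit, and each library left out. Counts of 15064 genes were also simulated, with the library sizes and the dispersion of each gene estimated from these 8 libraries. The test called 51% of 100 genes changed by a fold of 2 and 79% of 100 changed by a fold of 4, with 11 false calls. Each gene was drawn on its own, without the tissue differences that many genes of a library share. These shares therefore do not give the sensitivity of the test in the real libraries. Tables were made with Python 3.11.15 (numpy 2.4.6, pandas 2.3.3) and plots with matplotlib 3.10.9.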

Additional observations from a re-analysis of the deposited data

Results flagged for a closer look

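In 372 sets of 4 values (136 genes and 50 lists in each group), 17 had 1 library far from the other 3 (4.57%), and chance alone gives about 1 in 20. rTg4510-Nano M2 held 7 of the 17. It was high for Chrm2, a muscarinic receptor (16.1 CPM, others 3.995 to 5.56), Gabre (25.9 CPM, others 0.08 to 2.595), Gad2 (570.3 CPM, others 183 to 215) and Lgmn (165.4 CPM, others 121 to 128). It was low for P2ry12 (31.0 CPM, others 43.3 to 43.5), Tbr1 (18.0 CPM, others 146 to 169) and the mean of the 11 genes that the study names (2.92 log2 CPM, others 3.55 to 3.61). Markers of the hypothalamus were highest in the same library, and their part in these values was not tested.

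LM F3 was low for CA pyramidal cell markers (5.62 log2 CPM, others 6.26 to 6.37) and high for neuropeptide precursors (4.88, others 3.99 to 4.10), hypothalamus markers (-0.79, others -1.73 to -1.60) and the muscarinic receptor gene Chrm5 (4.43 CPM, others 1.504 to 1.984). LM F2 was high for brain endothelial markers (4.91 log2 CPM, others 4.68 to 4.70) and LM M2 for C3ar1 (2.28 CPM, others 0.709 to 0.897).

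rTg4510-Nano F1 was high for Ctsz (51.3 CPM, others 39.1 to 40.2) and Plek (21.3 CPM, others 16.3 to 17.1). rTg4510-Nano M3 was high for Txnip (21.3 CPM, others 11.9 to 12.9) and Vim (88.1 CPM, others 40.7 to 48.3).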

How the results depend on the processing

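The number of genes lower in rTg4510-Nano mice was 4 with DESeq2 size factors, without a filter and with a mean count of at least 50. It was 35 (and 20 higher) with the DESeq2 test, 2 with the 3 groups of the model fitted together (Esyt2 and Ier5l), 1 with all 6 groups (Esyt2), and 0 with limma-voom, with sex, the choroid plexus score or the pituitary score as a covariate, in females or males alone, and where LM M1 was left out together with rTg4510-Nano M2 or M3. With the hypothalamus score as a covariate, an alternative chosen after seeing the data like those joint omissions, 4 genes were higher (Prnp, Prss23, Ctss and Car4) and 1 lower (Ptprn2). With each library left out, the counts were 0 to 4 higher and 0 to 4 lower. With a replicate block for libraries that share sex letter and number, 0 genes were called (1884 at an unadjusted p under 0.05). Only F2 and M2 occur in both groups, and their deviations from the group means correlated with r of 0.215 and -0.153 (crossed, -0.236 and -0.312), so the numbers were not taken as pairs.

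Of 3250 values of 136 named genes under the alternatives, 3120 kept their direction and side of the threshold and 29 changed sign. In 29 others a call was gained, and in 72 a call of the main test was lost. Only Esyt2, Gabrd, Ptprn2 and Ier5l were called in the main test, so all 72 lost calls were theirs. The other named genes were not past the threshold there, so the 3120 values say little about how stable the calls were. The log2 fold change of Nlrp3 was 0.0567 with limma-voom, 0.0600 with sex as a covariate, 0.032 and 0.0405 with the choroid plexus and pituitary scores, 0.62 in males and -0.25 to 0.38 with single libraries left out. That of Aif1 was -0.0465 with limma-voom, -0.10 in males, -0.0823 without rTg4510-Nano M3 and LM M1, and -0.23 to 0.29 with single libraries left out. Bdnf was at 0.51 in females, 0.19 with the hypothalamus score and 0.0068 without rTg4510-Nano M2 and LM M1. D430020J02Rik was at -0.33 in females, -0.0594 with the hypothalamus score, -0.0113 without rTg4510-Nano M3 and LM M1, and -0.0479 to 0.30 with single libraries left out. With the replicate block, the values were -0.0612 for Aif1, -0.00019 for Car4, 0.18 for Fgf14, -0.14 for Gfap, -0.18 for Nfkb2, 0.23 for Nlrp3, -0.29 for Prss23 and -0.41 for Tbr1. The cause of these changes was not tested. Leaving out a library leaves 7, and the depth limits genes of few counts such as Nlrp3 and Itgax.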
